A study of Mus musculus with 14 samples.

Results

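The comparison described here set RNA bound to tagged ribosomes of hippocampal parvalbumin (PV) neurons against total RNA of the hippocampus. It used 7 of the 14 samples of the series, namely 4 TRAP samples and 3 input samples, all from non-defeated mice and taken by their labels. TRAP (translating ribosome affinity purification) pulls down ribosomes that carry an EGFP-tagged L10a protein. The mice were males of C57BL/6 background that carried a Cre-dependent EGFP-L10a allele and PV-Cre, so every cell that had expressed Cre, in any part of the dissected tissue, carried the tag. A TRAP sample held both hippocampi of a single mouse. Input was labelled as total RNA of the non-defeated group before the TRAP procedure. The labels did not say whether TRAP and input came from the same mice, so no pairing was used. The p-values measured the spread between samples within groups, over all 14 samples of the series fitted together. The other 7 samples were TRAP from mice that were resilient (4) or susceptible (3) after chronic social defeat stress.

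PV neurons are inhibitory interneurons, many of them basket and chandelier cells that contact the soma and the axon initial segment of principal cells. They fire fast and brief action potentials, release GABA with precise timing and are known for a high energy use and for a coat of extracellular matrix called the perineuronal net. Total hippocampal RNA, in contrast, comes from principal neurons, all interneurons, glia, vessels and choroid plexus.

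Library totals ranged from 72098582 to 94726962 counts in TRAP and from 64110214 to 80063224 in input. The first principal component of expression held 66.4% of the variance and separated TRAP from input, and the second held 13% and set TRAP 1 apart from TRAP 9 and 11. A list of 16 genes of thalamic neurons, a region that borders the hippocampus, divided the samples in another way. Its summed level was 534 to 685 CPM (read counts scaled to a common library size) in TRAP 9 and 11 and 645 CPM in input 14, against 203 to 231 CPM in TRAP 1 and 6 and 220 to 262 CPM in inputs 12 and 13. For several results that moved with these 3 samples, the value without them is given as well. CPM here are scaled by TMM factors, which correct for differences in composition between libraries, and every fold change is TRAP over input on the log2 scale with its standard error.

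Pvalb, the gene of the calcium buffer that names these cells, checked the label. Its level was 1507, 1548, 1265 and 1538 CPM in TRAP 1, 6, 9 and 11, and 20, 24.4 and 31.9 CPM in inputs 12, 13 and 14. The groups lay far apart, and the log2 fold change was 5.85 ± 0.17 (adjusted p = 7.89e-11, edgeR's quasi-likelihood test with Benjamini-Hochberg adjustment, as for all adjusted p below). Rpl10a, the gene of the tagged protein, was at 147 CPM ± 11.5 (SD, n = 4) in TRAP and 56.9 ± 2.20 (n = 3) in input, a log2 fold change of 1.36 ± 0.10 (adjusted p = 1.04e-07). It ranked 5th among 53 Rpl genes, and reads of the transgene and of the endogenous gene cannot be told apart in gene counts. The long noncoding RNA at the Rosa26 locus, Gt(ROSA)26Sor, did not pass the test (−0.13 ± 0.11, adjusted p = 0.309). The 250 bases before the first RefSeq start of Pvalb, the gene after which the Cre driver is named, are shown because this gene carries the check of the label (RefSeq, GRCm38.p6, chr15:78206401-78206650, minus strand), with no part marked.
Pvalb: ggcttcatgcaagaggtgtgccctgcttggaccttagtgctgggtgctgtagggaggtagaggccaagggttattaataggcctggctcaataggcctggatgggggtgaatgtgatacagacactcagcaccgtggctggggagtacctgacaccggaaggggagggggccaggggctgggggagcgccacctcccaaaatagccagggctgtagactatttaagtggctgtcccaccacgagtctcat

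Across 21298 genes tested, 5832 (27.4%) were higher and 5887 (27.6%) lower in TRAP at an adjusted p below 0.05. Of these, 2250 (10.6% of all tested) were over 2-fold higher and 2811 (13.2%) over 2-fold lower. The median log2 fold change over all genes was −0.04. Scaling by total counts alone moved that median to −0.23 and the calls to 4378 higher and 7598 lower, so that 36.6% of calls were higher against 49.8%, and small shifts of a list below are to be read against the median of all genes. Fewer cells of a type and less RNA per cell cannot be told apart in such bulk samples, nor can RNA content and ribosome loading, since TRAP was set against total RNA.

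**Figure D1:**
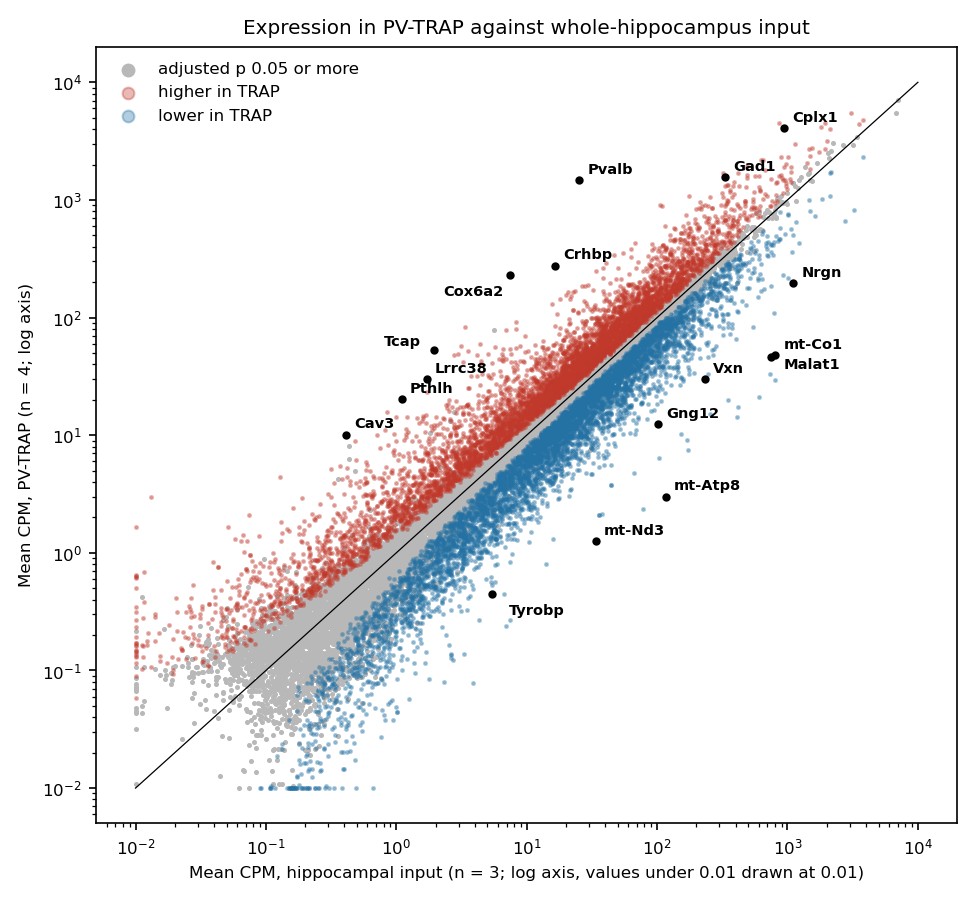
Each point is a gene, with its mean CPM in 3 input samples on the x axis and in 4 TRAP samples on the y axis, both logarithmic. Red and blue points passed an adjusted p of 0.05, and among the labelled genes Pvalb (5.85) lies farthest above the line of equality and mt-Atp8 (−5.28) farthest below it.

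Protein-coding genes called higher were ranked if they had at least 5 CPM in TRAP and groups that did not overlap. Pvalb and 10 other markers named in earlier work on these data were left out. The largest rises within these limits included Cox6a2, Tcap, Akr1c18, Cav3, Cdk15, Mustn1, Pthlh, Cort, Lrrc38, Crhbp, Agmat, Adamtsl5, Cryaa and Tpm2. Their log2 fold changes ran from 4.95 down to 3.87. Without the limits, Cox6a2 ranked 20th among all 21298 genes by log2 fold change. In each of these 14 genes the 4 TRAP samples lay above the 3 inputs, which the rule of choice required. In each, all 7 TRAP samples of defeated mice also lay above every input, but this sets them against the same 3 inputs that entered the choice and is no independent support.

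Cox6a2 (chr7:128205435-128206387 in mm10, minus strand) encodes the heart and muscle form of a cytochrome c oxidase subunit. Its level was 247, 284, 194 and 201 CPM in TRAP 1, 6, 9 and 11 against 5.10, 7.04 and 10.3 CPM in input (4.95 ± 0.32, adjusted p = 2.81e-08). All TRAP values lay far above the highest input. The gene overlaps Itgad on the other strand, and the strand setting of the counts was not given.

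Several of the others encode secreted proteins. Pthlh, parathyroid hormone-like hormone, was at 23.7, 24.2, 16.2 and 16.7 CPM in TRAP and at 0.904 to 1.20 CPM in input (4.20 ± 0.28). For Crhbp, which binds corticotropin-releasing hormone, TRAP held 310, 320, 233 and 245 CPM and input 13.1 to 19.9 CPM (4.07 ± 0.29). In Pthlh and Crhbp, TRAP 1 and 6 were higher than TRAP 9 and 11. Cort, the precursor of cortistatin, a peptide related to somatostatin, rose from 3.15 CPM ± 0.734 to 57.2 ± 16.7 (4.19 ± 0.39, adjusted p = 7.17e-07). Wnt5b, a secreted Wnt ligand from outside the 14 genes, was at 9.19 CPM ± 1.27 in TRAP and 1.14 ± 0.191 in input (3.0 ± 0.27). Of 16 Wnt genes it was joined only by Wnt5a (1.15) among those higher. Another 8 were lower (50.0%, against 27.6% of all genes), among them Wnt7b at −1.95.

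Others encode enzymes, membrane proteins or structural proteins. Akr1c18, which reduces progesterone, was at 100, 96.4, 65.7 and 73.0 CPM in TRAP and 3.06 to 3.88 CPM in input (4.65 ± 0.22). Agmat, which breaks down agmatine, stood at 4.98 to 5.45 CPM in TRAP and 0.223 to 0.382 CPM in input (4.04 ± 0.31). Lrrc38, an auxiliary subunit of large-conductance calcium-activated potassium channels, was at 29.8 CPM ± 5.40 against 1.71 ± 0.332 (4.12 ± 0.24). Tcap, Cav3 and Tpm2 are best known from striated muscle and had log2 fold changes of 4.78 ± 0.37, 4.60 ± 0.34 and 3.87 ± 0.29. Cryaa, a lens crystallin, rose to 5.48 CPM ± 1.58 from 0.372 ± 0.151.

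**Figure D2:**
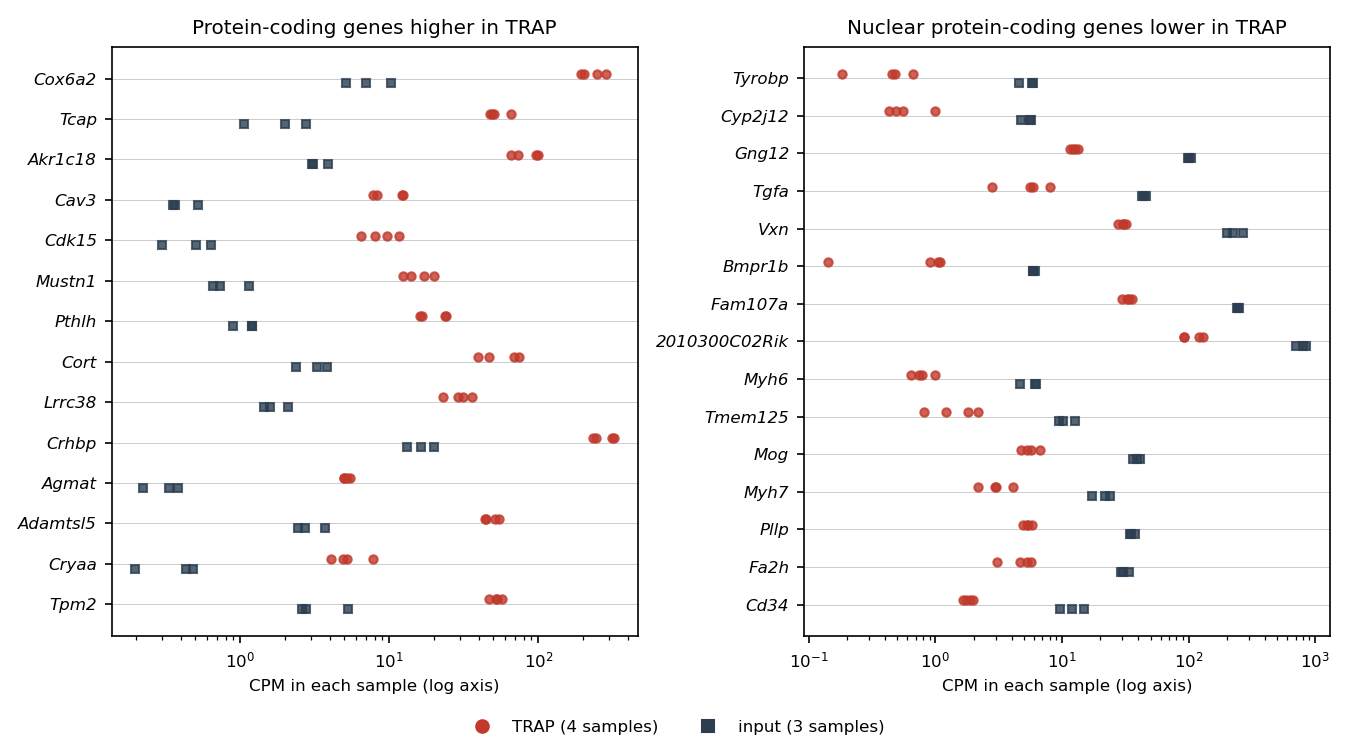
CPM in each of 4 TRAP samples (red circles) and 3 input samples (dark squares), on a logarithmic axis. Shown are 14 of the protein-coding genes that rose most and the 15 nuclear protein-coding genes that fell most. Genes needed at least 5 CPM in the higher group to be ranked. TRAP and input values do not overlap for any of these genes, a criterion of their choice, and Cox6a2 and Crhbp show the highest TRAP values on the left.

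Protein-coding genes that fell were ranked if they had at least 5 CPM in input and groups that did not overlap. Within these limits the 13 protein genes of the mitochondrial genome took 13 of the 15 leading places. Log2 fold changes of protein-coding genes outside the limits reached −7.69. The nuclear genes that fell most within the limits were Tyrobp, Cyp2j12, Gng12, Tgfa, Vxn, Bmpr1b, Fam107a, 2010300C02Rik, Myh6, Tmem125, Mog, Myh7, Pllp, Fa2h and Cd34. Beyond Tyrobp and Cyp2j12, these were listed by the same criteria after the mitochondrial genes had been seen to fill the places. Their log2 fold changes ran from −3.60 to −2.74. In each of the 15 all 7 TRAP samples of defeated mice lay below every input, again the same inputs that entered the choice. Gng12, a G protein gamma subunit, was at 11.5, 12.3, 12.6 and 13.4 CPM in TRAP and at 98.8, 104 and 99.8 CPM in input (−3.02 ± 0.11, adjusted p = 6.26e-10). Vxn, which promotes neuronal differentiation, was at 27.8 to 31.9 CPM in TRAP and 201 to 268 CPM in input (−2.94 ± 0.14). Fam107a, a gene of astrocytes and stress responses, fell from 245 CPM ± 4.59 to 32.9 ± 2.40 (−2.90 ± 0.16). The spread between TRAP samples was small for Gng12, Vxn and Fam107a, whereas Bmpr1b, a BMP receptor, ranged from 0.141 to 1.09 CPM in TRAP (−2.91 ± 0.74, adjusted p = 0.00403). Mog, Pllp, Fa2h and Tmem125 are genes of myelinating cells, and Tyrobp is a microglial signalling adaptor.

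RNAs that do not code for protein were ranked within the same limits, at least 5 CPM in the higher group and no overlap. Gm26902, 8030443G20Rik, Gm13629, 3300002A11Rik and Gm15816 rose most, with log2 fold changes from 3.64 to 3.03. Each overlaps, on the other strand, a protein-coding gene. Gm13629 overlaps Scn9a (2.06), 8030443G20Rik overlaps Rab3b (3.02) and Gm15816 overlaps Ank1 (3.29), all called higher themselves, so reads of the partners cannot be told apart without the strand setting. The largest falls included Gm13341 (−5.06) and Gm13339 (−4.14), annotated as unprocessed pseudogenes within Myo3a on the other strand. The others were the mitochondrial tRNA genes mt-Tq (−4.85) and mt-Tm (−4.80) and mt-Rnr2 (−4.48), a mitochondrial ribosomal RNA. Both pseudogenes were higher in TRAP 1 and 11 than in TRAP 6 and 9, as was the summed level of the mitochondrial protein genes. Whether reads of these pseudogenes came from the mitochondrial genome was not tested, so their falls are not to be read as a separate nuclear result.

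The cell type lists set the tagged cells against the rest of the tissue. Of 33 genes of PV and fast-spiking interneurons, 26 were higher, 3 lower and 4 not called, with a median log2 fold change of 1.55. All 26 were up by more than 2-fold, against 10.6% of all genes. Members of all lists were chosen with earlier results of these data known, so such counts describe the lists and are no independent support. After Pvalb, Cox6a2, Akr1c18 and Pthlh came Tac1, the precursor of substance P, at 67.0, 72.2, 51.2 and 50.0 CPM in TRAP and 4.13 to 4.78 CPM in input (3.78 ± 0.33). Nefh, the heavy neurofilament chain, was at 284, 292, 395 and 339 CPM in TRAP and 50.5 to 82.5 CPM in input (2.37 ± 0.19). Erbb4, the neuregulin receptor of interneurons, rose from 9.78 CPM ± 1.37 to 50.8 ± 5.27 (2.37 ± 0.24). The 3 that fell were Sema3e (−1.26), Tpbg (−0.87) and Unc5b (−0.57), while Kcnab3, Ntf3, Oxtr and Vipr2 did not pass the test.

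Of 22 genes of other interneuron classes, 7 were higher (31.8%) and 11 lower (50.0%), against 27.4% and 27.6% of all genes. The median was −0.73. The higher ones included Npy and Pnoc beside Cort and Crhbp. Npy, neuropeptide Y, was at 251, 223, 133 and 130 CPM in TRAP and 23.7 to 28.7 CPM in input (2.79 ± 0.33). Here too TRAP 1 and 6 exceeded TRAP 9 and 11. Genes that mark other classes were lower, among them Vip (−2.29), Tac2 (−2.19), Adarb2 (−1.56), Cnr1 (−1.44), Calb2 (−1.42) and Cck (−0.82).

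Of 30 genes of hippocampal excitatory neurons, 29 were lower and 1 higher, against 27.6% lower among all genes, and the median was −1.55. Neurod6, a transcription factor of pyramidal cells, was at 47.0, 47.4, 49.6 and 49.1 CPM in TRAP and at 278, 282 and 245 CPM in input (−2.47 ± 0.18). Nrgn, a calmodulin-binding protein of principal cells, was at 224, 227, 157 and 173 CPM against 965 to 1189 CPM (−2.50 ± 0.17). Slc17a7, the vesicular glutamate transporter of these cells, still stood at 169 CPM ± 25.4 in TRAP (−1.88 ± 0.20), and the summed level of the list was 1866 to 2251 CPM in TRAP and 5543 to 6396 CPM in input. The exception was Dsp, the desmosomal protein desmoplakin and a marker of dentate granule cells, at 11.1, 13.6, 20.3 and 18.3 CPM in TRAP and 5.34 to 5.65 CPM in input (1.51 ± 0.37, adjusted p = 0.00287).

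Glial lists were lower. None of 20 oligodendrocyte, 20 microglial or 20 astrocyte genes was higher. In these lists 19 (95.0%), 18 (90.0%) and 15 (75.0%) were lower, against 27.6% of all genes, with medians of −1.86, −2.11 and −1.25. Mobp, a myelin-associated basic protein, was at 68.5, 60.2, 68.9 and 67.0 CPM in TRAP and 383 to 445 CPM in input (−2.61 ± 0.23). In the astrocyte list, Glul, Aldoc and Acsbg1 did not pass the test (−0.24, −0.27 and −0.80). The summed levels of the astrocyte and oligodendrocyte lists were highest in TRAP 9 and 11, at 1947 to 2013 CPM and 1568 to 1785 CPM, against 1388 to 1481 CPM and 1135 to 1137 CPM in TRAP 1 and 6. Of 10 genes of oligodendrocyte precursors, 8 were lower and C1ql1 was higher (1.74 ± 0.36), at 35.6, 26.4, 15.4 and 13.1 CPM in TRAP and 6.54 to 7.14 CPM in input.

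Lists of vessels and ventricular cells gave mixed results. Of 20 endothelial genes, 5 were higher, 3 lower and 12 not called, with a median of 0.33, which was −0.28 with TRAP 1 and 6 alone. Their summed level was 41.7 to 63.5 CPM in TRAP and 45.2 to 49.7 CPM in input. Of 13 mural genes, 2 were higher (15.4%) and 1 lower (7.69%), shares below those of all genes. Among the higher was Acta2, smooth muscle actin, at 36.6, 28.0, 17.7 and 27.2 CPM in TRAP and 5.78 to 7.38 CPM in input (2.03 ± 0.25). Tagln (1.05), Myh11 (−0.18) and Pdgfrb (−1.15) did not pass the test. Of 14 genes of choroid plexus and ependyma, 5 were higher and 5 lower (35.7% each, against 27.4% and 27.6% of all genes). The choroid plexus genes Clic6 (−1.85), Ttr (−1.59) and Otx2 (−1.22) were lower, and the ependymal genes Ccdc153 (3.29), Tmem212 (3.24) and Foxj1 (1.56) were higher. Of 8 erythroid genes 5 were lower (62.5%) and of 10 fibroblast genes 4 were lower (40.0%), with none higher in either list.

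Of the 16 thalamic genes, Ramp3 and Rora (0.99) were higher, Zic4 (−1.24) and Calb2 were lower and 12 were not called. These shares, 12.5% in each direction, lay below the 27.4% and 27.6% of all genes. Ramp3, a receptor-modifying protein, was at 19.1 and 19.1 CPM in TRAP 1 and 6 and at 66.5 and 92.6 CPM in TRAP 9 and 11, against 2.44, 2.62 and 14.4 CPM in inputs 12, 13 and 14 (2.92 ± 0.88, adjusted p = 0.0118). It was 2.90 in TRAP 1 and 6 against inputs 12 and 13, and 1.54 in TRAP 1 and 6 against all 3 inputs, where it did not pass the test (adjusted p = 0.153). Prkcd, a kinase of thalamic relay cells, was at 15.2 to 18.8 CPM in TRAP 1 and 6 and at 130 to 197 CPM in TRAP 9 and 11, and did not pass the test (−0.03 ± 1.10, or −1.51 without TRAP 9 and 11 and input 14). The part of thalamic RNA in other results was not tested beyond the values without these samples.

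**Figure D3:**
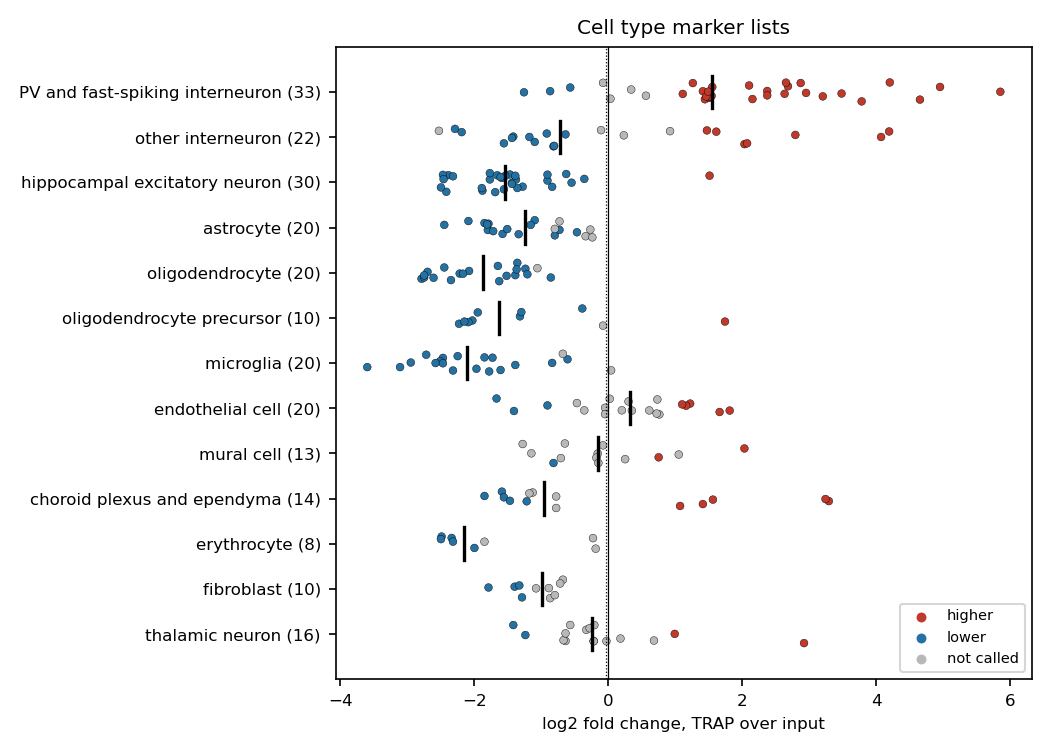
Log2 fold changes of TRAP over input for each tested gene of 13 cell type lists (number of genes in parentheses), with black bars at list medians, a solid line at 0 and a dotted line at the median of all genes. The PV list has its median at 1.55, and the excitatory, oligodendrocyte and microglial lists at −1.55, −1.86 and −2.11.

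Most genes of GABA handling were higher. Of 11 genes of GABA synthesis, loading and uptake, 7 were higher (63.6%) and 1 lower (9.09%), against 27.4% and 27.6% of all genes. Their median was 1.01. Slc32a1, which loads GABA into vesicles, was at 49.4, 47.1, 40.9 and 40.5 CPM in TRAP and 5.38 to 7.0 CPM in input (2.86 ± 0.21). Gad1, the major GABA-synthesizing enzyme, was at 1316, 1518, 1926 and 1513 CPM against 304 to 353 CPM (2.25 ± 0.16), and Gad2 rose by less (1.5 ± 0.13). The glial GABA transporter Slc6a11 was lower (−1.77 ± 0.32).

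Of 31 transcription factors of interneurons, 16 were higher (51.6%) and 7 lower (22.6%), against 27.4% and 27.6% of all genes (median 0.93). Dlx5 was at 51.6, 49.0, 36.5 and 36.8 CPM in TRAP and 5.16 to 8.76 CPM in input (2.76 ± 0.22). Dlx6 (2.76), Maf (2.7) and Lhx6 (2.68), which like Dlx5 act in the development of inhibitory neurons, were higher too. Dlx6 overlaps antisense transcripts, so its reads are uncertain without the strand setting. Among those that fell were St18 (−1.86), Etv1 (−1.75), Prox1 (−1.69), Nkx2-1 (−1.37), Zeb2 (−0.97) and Npas1 (−0.80). Nkx2-1, which specifies these cells in the embryo, was at 0.152 to 0.460 CPM in TRAP and 0.354 to 1.43 CPM in input, and its groups overlapped.

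Voltage-gated potassium channel genes moved in both directions. Of 43, 13 were higher (30.2%) and 18 lower (41.9%), against 27.4% and 27.6% of all genes. Their median was −0.38, or −0.12 without TRAP 11. The higher ones included Kcnc1 and Kcnc2, which encode fast Kv3 channels. Kcnc1 was at 375, 386, 301 and 300 CPM in TRAP and 43.1 to 48.3 CPM in input (2.87 ± 0.17) and Kcnc2 rose by 2.15, while Kcnc4 fell by 1.52 on the log2 scale. The silent subunits Kcng4 and Kcns3, which modify Kv2 channels, were higher as well. Kcng4 was at 73.3, 69.3, 80.1 and 92.4 CPM in TRAP and 5.64 to 7.92 CPM in input (3.50 ± 0.20). Kcns3 was at 51.7 to 55.1 CPM in TRAP and 7.04 to 7.83 CPM in input (2.84 ± 0.12). Their relatives Kcng1 (−1.6), Kcng2 (−1.46) and Kcns2 (−1.65) were lower, as were the M-current genes Kcnq3 (−0.90) and Kcnq5 (−1.83). The Kv4 partner Kcnip1 (2.41 ± 0.17) was higher and Kcnip3 (−2.46) and Kcnip4 (−1.03) lower.

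Of 25 other potassium channel genes, 6 were higher (24.0%) and 13 lower (52.0%), against 27.4% and 27.6% of all genes. Kcnmb2, a subunit of large-conductance calcium-activated channels as Lrrc38 is, was at 35.1, 32.8, 26.7 and 33.8 CPM in TRAP and 2.98 to 4.26 CPM in input (3.11 ± 0.20). Kcnk3, a leak channel, was at 29.8 to 34.7 CPM against 4.03 to 6.08 CPM (2.68 ± 0.23). The leak channels Kcnk9 (−2.64), Kcnk10 (−1.19) and Kcnk2 (−1.09) and the astrocytic inward rectifiers Kcnj16 (−2.03) and Kcnj10 (−0.98) were lower.

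Sodium channel genes also divided within the list. Of 16, 8 were higher (50.0%) and 7 lower (43.8%), against 27.4% and 27.6% of all genes, with a median of −0.06. Scn1a, the main sodium channel of PV cells, was at 112, 110, 105 and 107 CPM in TRAP and 20.3, 23.8 and 29.8 CPM in input (2.14 ± 0.16). Scn8a (0.41), Scn2b (0.91) and Scn4b (1.6) were higher, and Scn2a (−0.94) and Scn3a (−0.85) were lower. Scn3b fell from 83.4 to 103 CPM in input to 15.4 to 17.9 CPM in TRAP (−2.51 ± 0.14). The FGF homologous factors, which bind sodium channels, split into Fgf11 (1.70) and Fgf12 (1.64) above and Fgf13 (−1.06) and Fgf14 (−1.25) below input. Scn9a (2.06) shares its locus with Gm13629, as given above.

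Among HCN channel genes, Hcn2 was at 108, 115, 120 and 129 CPM in TRAP and 45.2 to 50.0 CPM in input (1.32 ± 0.09). Hcn3 (1.02) was higher too and Hcn4 did not pass the test (0.55). Pex5l, the trafficking partner of these channels, was lower (−1.44 ± 0.19). Of 23 calcium channel genes, 6 were higher (26.1%) and 9 lower (39.1%), against 27.4% and 27.6% of all genes. Cacna1a, the P/Q-type channel that drives release from PV terminals, rose by 1.40, with its partners Cacna2d2 (1.58) and Cacnb4 (0.82). Cacna2d1 (−1.5), Cacna2d3 (−1.15) and Cacnb2 (−1.5) were lower. Cacna1s, the skeletal muscle channel, was at 9.43, 4.47, 2.32 and 3.75 CPM in TRAP and 0.391 to 1.06 CPM in input (2.98 ± 0.48).

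Receptors for transmitters followed no single direction. Of 16 GABA-A subunit genes, 5 were higher (31.2%) and 6 lower (37.5%), against 27.4% and 27.6% of all genes. Gabrd, the delta subunit of extrasynaptic receptors, was at 36.1, 49.8, 41.4 and 40.4 CPM in TRAP and 8.10 to 11.8 CPM in input (2.14 ± 0.19). Gabra5, the extrasynaptic subunit of pyramidal cells, was at 34.2 to 38.2 CPM in TRAP and 149 to 191 CPM in input (−2.30 ± 0.14). Gabra2 (−2.11) was lower as well. Gabra5 overlaps other annotated genes on the opposite strand. Gabra6 had no count in any input and 0.163 CPM in TRAP, too few for a fold change.

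Of 18 ionotropic glutamate receptor genes, 3 were higher (16.7%) and 5 lower (27.8%), against 27.4% and 27.6% of all genes. Gria4 was at 53.3, 52.8, 55.9 and 52.4 CPM in TRAP and 14.7 to 21.7 CPM in input (1.58 ± 0.20). Gria2, the subunit that blocks calcium entry, was lower, at 84.4, 86.2, 103 and 126 CPM against 177 to 219 CPM (−1.01 ± 0.17). For Gria1 (0.02 ± 0.16) and Gria3 (−0.07) no difference was detected. Grin2a (−1.6) and Grik4 (−1.77) were lower. Of 7 metabotropic receptor genes Grm2 (−1.35) and Grm7 (−0.92) were lower (28.6%, against 27.6% of all genes) and none was higher.

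Of 64 receptors for monoamines, acetylcholine, opioids and peptides, 10 were higher (15.6%) and 29 lower (45.3%), against 27.4% and 27.6% of all genes. Their median was −0.69. Chrm2, the muscarinic M2 receptor, was at 20.7, 16.9, 19.9 and 29.5 CPM in TRAP and 4.30 to 5.15 CPM in input (2.23 ± 0.23). Oprd1, the delta opioid receptor, was at 10.6 to 13.5 CPM against 2.37 to 3.27 CPM (2.10 ± 0.23), and Cckbr, a cholecystokinin receptor, at 22.1 to 28.4 CPM against 5.42 to 9.27 CPM (1.71 ± 0.21). Drd4 (2.48), a dopamine receptor under 1 CPM throughout, and Htr1f (1.34), a serotonin receptor, were higher. Adra1b, an adrenergic receptor, was at 7.13, 5.73, 12.3 and 10.2 CPM in TRAP and at 1.52, 1.84 and 5.67 CPM in inputs 12, 13 and 14 (1.55, adjusted p = 0.0286), highest within each group in the samples with a higher thalamic sum. With TRAP 1 and 6 against inputs 12 and 13 its log2 fold change was 1.92. Cckar stood at 7.38 and 10.5 CPM in TRAP 9 and 11 and at 1.02 to 1.03 CPM in TRAP 1 and 6, and did not pass the test (3.33 ± 1.38, adjusted p = 0.0537), and its log2 fold change was 1.35 in TRAP 1 and 6 against inputs 12 and 13. Chrm1 (−1.28), Htr1a (−2.17), Npy1r (−1.74) and Sstr4 (−1.91) were among those lower. Avpr1b had no count in TRAP and 0.283 CPM in input.

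Of 53 genes of transmitter release 17 were higher (32.1%) and 15 lower (28.3%), against 27.4% and 27.6% of all genes, with a median of −0.07. Syt2, a fast calcium sensor for release, was at 86.1, 105, 93.6 and 85.7 CPM in TRAP and 6.32 to 11.1 CPM in input (3.48 ± 0.25). Vamp1 (2.63 ± 0.17) rose from 175 CPM ± 43.3 to 1085 ± 73.8, and Vamp2 by 0.48. Cplx1 was at 4038, 4613, 4257 and 3333 CPM in TRAP and 894 to 1025 CPM in input (2.10 ± 0.17), while Cplx2 was lower (−1.62). Rab3b, a vesicle GTPase, was at 1072, 1026, 746 and 723 CPM against 104 to 114 CPM (3.02 ± 0.20), and Rab3a rose by 1.38. Sv2a (1.20) was higher and Sv2b (−1.81) lower. The synuclein genes Sncg (2.03) and Sncb (1.96) were higher. The priming factor Unc13b (−2.0) was lower and Unc13a did not pass the test (−0.11). Scaffolds Bsn (1.77) and Pclo (1.54) were higher and Erc2 (−1.0) and Rimbp2 (−1.01) lower.

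Of 56 genes of synaptic adhesion 15 were higher (26.8%) and 17 lower (30.4%), shares near those of all genes (27.4% and 27.6%). Nxph1, a neurexin ligand of inhibitory neurons, was at 170, 171, 156 and 162 CPM in TRAP and 22.4 to 22.8 CPM in input (2.86 ± 0.18). Nxph2 (3.37 ± 0.34), Cntnap4 (2.13 ± 0.22), Cbln4 (2.12) and Nlgn2 (1.5), the neuroligin of inhibitory synapses, were higher. Nlgn1 (−0.76) was lower and Nrxn2 (1.14) higher. In the excitatory postsynaptic list 17 of 31 were lower (54.8%), led by Nrgn, Synpo (−1.77) and Psd3 (−1.74). Another 6 were higher (19.4%), of which Shank1 was at 267, 241, 202 and 202 CPM in TRAP and 82.8 to 97.5 CPM in input (1.31 ± 0.16).

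Of 22 perineuronal net genes, 6 were higher (27.3%) and 7 lower (31.8%), shares near those of all genes (27.4% and 27.6%). Hapln4, a link protein of inhibitory synapses, was at 175, 191, 228 and 209 CPM in TRAP and 70.9 to 78.1 CPM in input (1.45 ± 0.15). The protease gene Adamts15 rose from 1.52 to 3.94 CPM to 10.7 to 13.3 CPM (2.17 ± 0.27). Acan, the aggrecan core protein, was at 2.15 to 2.87 CPM against 0.566 to 1.17 CPM (1.51 ± 0.25). Tnr (−1.08) and Ncan (−0.50) were lower, as was the neuronal pentraxin Nptx1 (−2.42 ± 0.21). The median of −0.14 was −0.72 with TRAP 1 and 6 alone and 0.33 with TRAP 9 and 11 alone.

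Of 21 immediate early genes, 3 were higher (14.3%) and 12 lower (57.1%), against 27.4% and 27.6% of all genes. Their median was −0.85. Fos was at 34.0, 40.3, 43.4 and 34.3 CPM in TRAP and 13.4 to 17.9 CPM in input (1.25 ± 0.16), and Dusp1 rose from 27.2 CPM ± 2.83 to 81.7 ± 4.79 (1.59 ± 0.14). Egr3 was lower, at 4.14 to 5.99 CPM against 25 to 34.3 CPM (−2.57 ± 0.21). Bdnf, the growth factor of principal cells, was at 7.39 to 8.88 CPM in TRAP and 30.7 to 34.3 CPM in input (−2.0 ± 0.17). Of 23 genes of ion pumps and chloride transport 11 were lower (47.8%), with Fxyd6 at −2.42 ± 0.18. Another 5 were higher (21.7%), among them the sodium pump subunit Atp1b1 (1.06). Of 17 genes of neurofilaments and the axon initial segment 6 were higher (35.3%, against 27.4% of all genes), 1 of them over 2-fold, and 4 were lower (23.5%). Of 28 calcium-binding protein genes 6 were higher (21.4%) and 12 lower (42.9%, against 27.6% of all genes), Hpca (−2.07) and Hpcal4 (−2.22) among the latter.

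**Figure D4:**
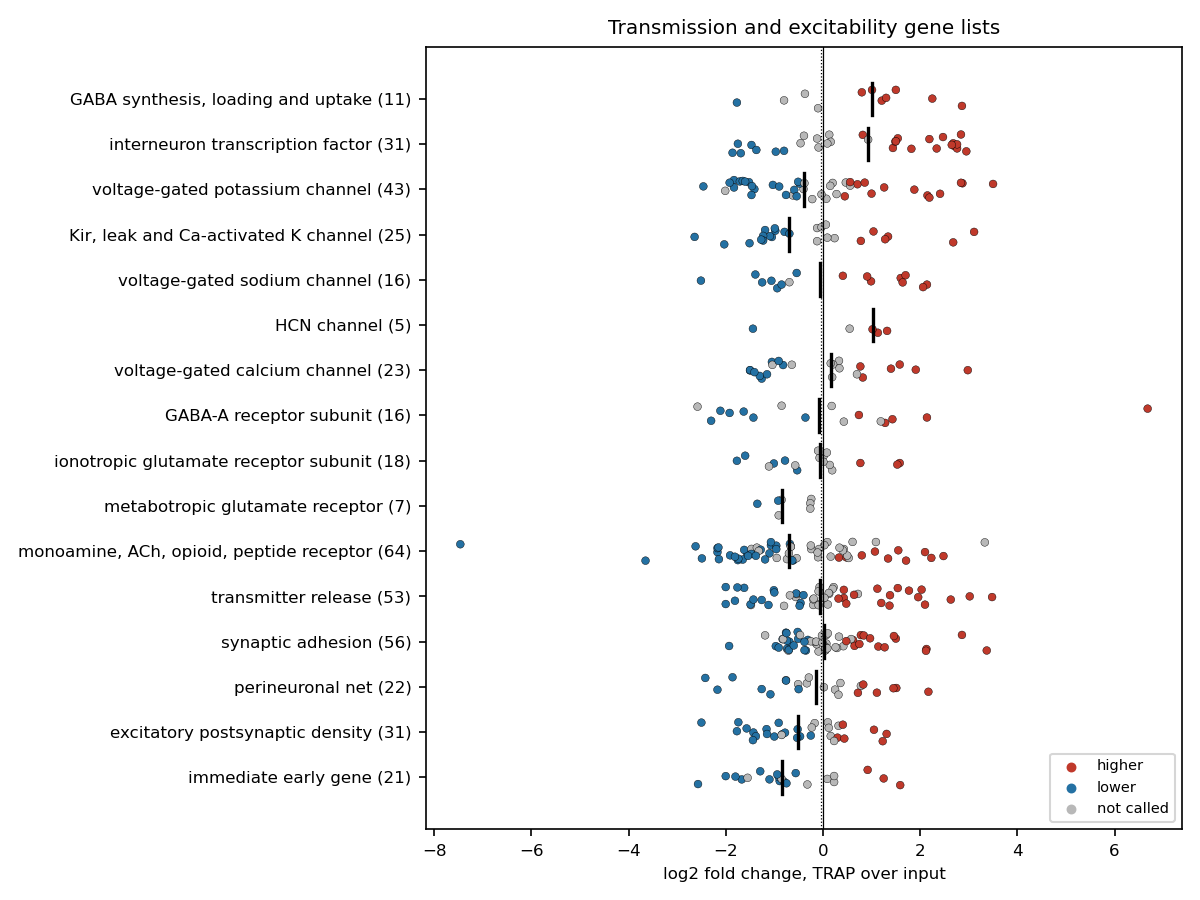
Log2 fold changes of TRAP over input for each tested gene of 16 lists of transmission and excitability (number of genes in parentheses), with black bars at list medians and a dotted line at the median of all genes. The lists of GABA synthesis and transcription factors have medians of 1.01 and 0.93, while most channel and receptor lists spread to both sides of 0. The points beyond 6 on either side are Gabra6 and Avpr1b, each without counts in every sample of a group.

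Genes of oxidative phosphorylation were higher as families. Genes were grouped by the letters before the first digit of their symbol, and among 275 such families of at least 8 tested members the 6 with the highest medians were Ndufb, Ndufa, Ndufs, Cox, Chchd and Timm. Ndufa, Ndufb and Ndufs genes encode subunits of complex I of the respiratory chain, Cox genes subunits and assembly factors of complex IV, and Timm genes parts of the import machinery of the inner membrane. Of 10 Ndufb genes all 10 were higher (median 1.73), of 14 Ndufa genes 13 (1.6), of 8 Ndufs genes 7 (1.27) and of 26 Cox genes 22, with 1 lower (1.20). All 8 Chchd genes and 12 of 14 Timm genes were higher too (0.97 and 0.96). The share of all genes called higher was 27.4%.

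Ndufb5 was at 549, 522, 469 and 491 CPM in TRAP and 123 to 131 CPM in input (2.01 ± 0.11), and it overlaps Mrpl47, also called higher, on the other strand. Cox5a was at 1107, 1129, 964 and 1075 CPM against 253 to 258 CPM (2.06 ± 0.09). Chchd10, a protein of mitochondrial cristae, rose from 349 CPM ± 15.2 to 1334 ± 168 (1.93 ± 0.11). The TRAP samples lay close together in all of these. Proteins of the mitochondrial ribosome were higher in 45 of 48 Mrpl and 26 of 29 Mrps genes (medians 0.85 and 0.77). Cytosolic ribosomal proteins rose less, with 37 of 53 Rpl genes higher (0.68) and a median of 0.34 in 44 Rps genes, which include kinases named Rps6k.

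Gene length moved with the result across all genes. When protein-coding genes were divided into 5 equal groups by exon length, 41.9% of the shortest were higher and 635 of 3177 lower, against 17.5% and 39.0% of the longest. With an offset for length in each library the medians were 1.42 for Ndufb, 1.34 for Ndufa, 1.16 for Ndufs, 1.0 for Cox and 0.46 for Rpl.

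Of 26 regulators of energy metabolism, 15 were higher (57.7%) and 7 lower (26.9%), against 27.4% and 27.6% of all genes. The share lower was thus near that of all genes, and the median was 0.95. Esrrg, a nuclear receptor that drives oxidative genes, was at 81.9, 84.4, 130 and 131 CPM in TRAP and 14.5 to 21.3 CPM in input (2.65 ± 0.25). Its relatives Esrra (1.61 ± 0.10) and Esrrb (2.24) and the coactivator Ppargc1a (1.41 ± 0.09) were higher. Ldhb, the lactate dehydrogenase form that favours pyruvate, was at 2012 to 2350 CPM against 599 to 676 CPM (1.81 ± 0.08), and Ldha did not pass the test (−0.60). Pdk1 (−1.31 ± 0.12), Pdk4 (−1.21) and Pdk2 (−0.48), kinases that inhibit pyruvate dehydrogenase, were lower. The estrogen-related receptor motif TNAAGGTCA was sought on either strand, from 250 bases before to 50 after the start, in RefSeq windows for GRCm38.p6. It occurred in 1.01% of all 12223 matched protein-coding genes, in 0.701% of 1142 over 2-fold higher and in 1.18% of 1694 over 2-fold lower. Among 47 matched Ndufa, Ndufb, Ndufs and Cox genes, it occurred in 1 (2.13%). The gene with a match was Ndufb4 (1.48), whose 250 upstream bases are shown with the motif in capitals (chr16:37654369-37654618, minus strand). The match describes letters and not binding.
Ndufb4: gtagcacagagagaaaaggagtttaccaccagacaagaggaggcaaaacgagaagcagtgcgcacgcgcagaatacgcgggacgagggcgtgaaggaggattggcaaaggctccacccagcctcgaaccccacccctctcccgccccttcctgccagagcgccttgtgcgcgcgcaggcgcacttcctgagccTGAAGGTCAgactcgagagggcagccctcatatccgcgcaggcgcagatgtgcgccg

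The mitochondrial genome went the other way. All 13 of its protein genes were lower, with a median of −4.53. These messages are translated inside the organelle, by ribosomes that do not contain L10a. Mt-Co1, a core subunit of complex IV, was at 70.0, 35.2, 23.0 and 62.3 CPM in TRAP 1, 6, 9 and 11 and at 820, 747 and 858 CPM in input (−4.08 ± 0.38). Mt-Atp8 fell the most (−5.28 ± 0.49), from 116 CPM ± 3.35 to 3.0 ± 1.70. All 22 mitochondrial tRNA genes tested were lower as well (median −4.36). Their summed protein gene level varied between TRAP samples, with 299 and 242 CPM in TRAP 1 and 11 and 129 and 89.9 CPM in TRAP 6 and 9, against 4007 to 4355 CPM in input.

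**Figure D5:**
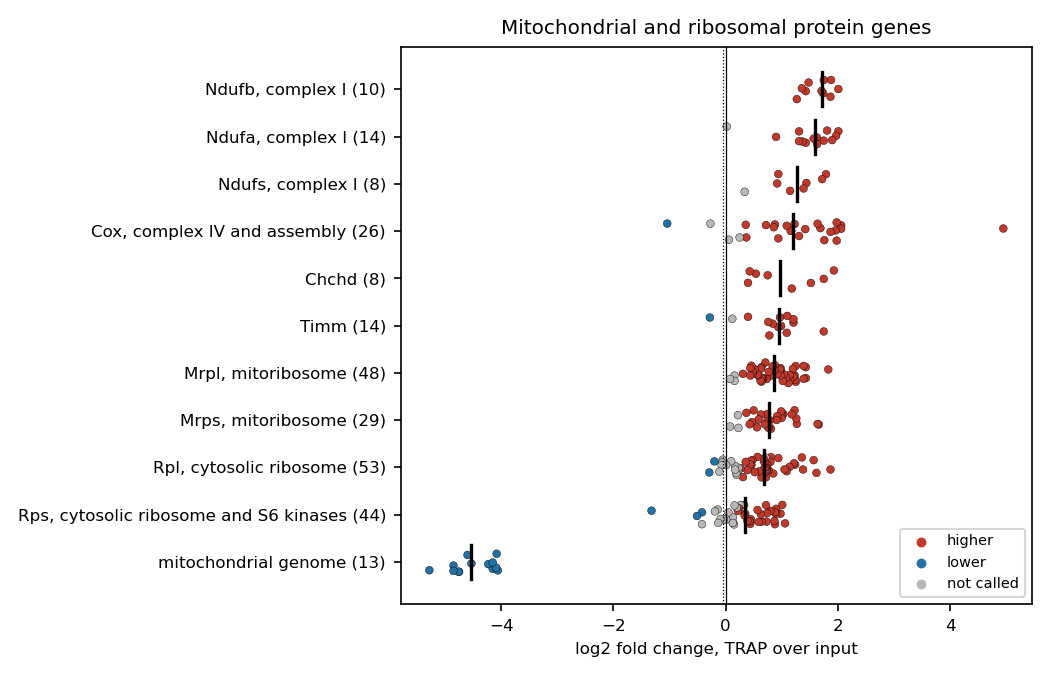
Log2 fold changes of TRAP over input for genes of nuclear mitochondrial families, cytosolic ribosomal families and the mitochondrial genome (number of genes in parentheses), with black bars at medians. The complex I and complex IV families have medians between 1.20 and 1.73, whereas the 13 mitochondrially encoded genes lie between −5.28 and −4.06.

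Nuclear RNAs were low in TRAP. Malat1, a noncoding RNA of nuclear speckles, was at 62.0, 38.8, 27.1 and 58.6 CPM in TRAP and 607 to 939 CPM in input (−3.99 ± 0.34). Neat1, the scaffold of paraspeckles, was at 0.189 to 0.711 CPM against 3.68 to 8.57 CPM (−3.90 ± 0.42). Of 16 noncoding RNAs in this list 11 were lower (68.8%, against 27.6% of all genes), Miat (−3.08), Meg3 (−1.81) and Rian (−1.81) among them. Another 2 were higher (12.5%), including Dlx6os1 (1.5), which lies at the Dlx5 and Dlx6 locus. Of 24 snRNA genes 13 were lower (54.2%) and 2 higher (8.33%). Of 35 snoRNA genes 10 were lower (28.6%, against 27.6% of all genes) and 3 higher. Of 249 miRNA genes 52 were lower (20.9%) and 56 higher (22.5%, against 27.4% of all genes). Processed pseudogenes were higher in 919 (42.7%) and lower in 168 (7.81%) of 2152 genes, but their reads cannot be told apart with certainty from those of their parent genes.

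At the low end of the family order stood Cldn, Tnfaip, Gng, Ugt, Wnt and Chst, with medians from −1.68 to −1.18. Of 16 claudin genes, which form tight junctions, 9 were lower (56.2%, against 27.6% of all genes), Cldn10 (−1.91) and Cldn11 (−1.63) among them. Cldn5, the claudin of brain endothelium, was higher (1.22). Of 10 G protein gamma genes 7 were lower, and Gng3 alone was higher (0.90). Of 8 Tnfaip genes, tied to inflammatory signalling, 7 were lower, with Tnfaip8l3 at −2.48. Of 12 Chst genes, which sulfate carbohydrates, 8 were lower and Chst10 was higher (0.35). Of 10 Ugt genes only Ugt8a, an enzyme of myelin lipids, was called (−1.24), and the other 9, which share exons at the Ugt1a locus and therefore reads, were at 0.160 to 1.09 CPM and were not called, although all 10 were called lower with DESeq2 and when only the 7 libraries of this comparison were fitted.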

How the data were processed

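The authors purified ribosome-bound RNA by TRAP, made SMART-Seq v4 and Nextera XT libraries and sequenced them on a NextSeq 500. They trimmed reads with fastp and aligned them to mm10 with STAR, for which the submitters' processing notes list version 2.5.3a beside HTSeq (the study's methods name a later version). Gene annotation and strand setting are not given in the sources used here. The deposited table holds raw counts for 39017 gene identifiers, of which 37693 were named from GENCODE mouse release 21.

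Groups followed the labels. Counts of all 14 libraries were fitted together with edgeR 4.0.16 in R 4.3.3 (filterByExpr, TMM, quasi-likelihood test), and TRAP was contrasted with input of non-defeated mice over 21298 genes, with Benjamini-Hochberg adjustment at 0.05. The standard error is the log2 fold change divided by the root of F. Scripts were tested on simulated data. Replicates differed by more than counting noise (chi-square per degree of freedom 13.9 to 114). Named genes were the 15 protein-coding and 5 other genes per direction with the largest changes, with at least 5 CPM in the higher group and groups that did not overlap, beside, in each list, up to 4 called members per direction by size of change and up to 3 that were not called, and up to 3 members of each symbol family. Further members, such as related isoforms or channel subunits, were named for their role after their values were seen. Members and lists were chosen with earlier results of these data known. Alternatives covered scaling, filters, tests including DESeq2 1.42.0, length and GC offsets and left-out libraries. Some genes that met the rule are not reported here.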

Additional observations from a re-analysis of the deposited data

Results flagged for a closer look

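Of 108 sets of TRAP values examined for a sample far from the other 3, 3 were found, where chance alone would give about 5.40. Each is the gap to the nearest sample divided by the whole range and lay above Dixon's critical value for 4 samples. Pvalb reached 0.854, because TRAP 9 was at 1265 CPM and the others at 1507 to 1548 CPM. Gm13629, the transcript antisense to Scn9a, reached 0.898, with TRAP 11 at 34.6 CPM and the others at 41.7 to 42.5 CPM. The summed level of the immediate early genes reached 0.852, with TRAP 1 at 787 CPM and the others at 855 to 867 CPM. All 3 remained on the same side of input.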

How the results depend on the processing

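Across the alternatives, genes called higher numbered 4378 to 6273 and lower 4531 to 7598, all within 1.5 times of 5832 and 5887. Leaving out each library gave 5088 to 5747 higher and 4928 to 5742 lower. No paired analysis was possible because TRAP and input share no replicate number. Among 617 named genes, direction reversed only with an offset for gene length, in Chst2 (0.06), Slc12a5 (0.27) and Syn2 (0.21). Calls were lost in 63 of these genes with TRAP 9 and 11 only, in 31 to 35 when an input was left out, in 11 to 25 when a TRAP sample was left out, in 32 with total counts only and in 1 to 30 under the other alternatives. The Ugt family had 10 members called lower with DESeq2 and with the 7 libraries alone, against 1. The cause of the shifts here and below was not tested.

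List medians moved by more than their spread as follows. With the length offset they were 1.86 for PV genes, 1.32 for GABA synthesis, 1.19 for transcription factors, −0.19 for voltage-gated and −0.40 for other potassium channels, 0.20 for sodium channels, 0.22 for ionotropic glutamate receptors, 0.21 for release, 0.42 for neurofilaments, 0.21 for adhesion, −0.27 for the postsynaptic density, 0.74 for energy regulators, 1.42 for Ndufb, 1.34 for Ndufa, 1.16 for Ndufs, 1.0 for Cox, 0.84 for Chchd, 0.85 for Timm and 0.46 for Rpl. With total counts only they were 0.82 for GABA synthesis, −0.57 for voltage-gated potassium channels, −0.25 for sodium channels and for ionotropic glutamate receptors, −0.43 for calcium-binding proteins, −0.17 for adhesion, −0.71 for the postsynaptic density, −1.05 for immediate early genes, 0.76 for energy regulators, 1.55 for Ndufb, 1.41 for Ndufa, 1.08 for Ndufs, 1.01 for Cox, 0.78 for Chchd, 0.77 for Timm, −1.45 for Gng, 0.16 for Rps, 0.67 for Mrpl and 0.58 for Mrps. With at least 10 counts in each library they were 1.17 for transcription factors, −0.14 for other potassium channels, 0.39 for sodium channels, −1.27 for Cldn and −0.73 for Chst. The GC offset gave 1.33 for Ndufs.

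With TRAP 1 and 6 only, medians were −2.36 for oligodendrocytes, −2.10 for their precursors, −0.28 for endothelial cells, −2.51 for erythrocytes, −1.75 for fibroblasts, −0.11 for calcium channels, −1.49 for metabotropic glutamate receptors, −1.04 for monoamine and peptide receptors, −0.72 for the perineuronal net, −0.16 for adhesion, −1.53 for Wnt and 0.86 for Mrps. With TRAP 9 and 11 only they were 1.17 for transcription factors, −0.30 for calcium channels, −0.34 for metabotropic glutamate receptors, 0.15 for release, 0.33 for the perineuronal net, −0.31 for the postsynaptic density, −1.74 for noncoding RNA, 0.46 for Rpl and 0.75 for Mrpl. TRAP 1 and 6 against inputs 12 and 13, chosen after seeing the data, gave 1.92 for PV genes, −1.84 for excitatory neurons, −2.28 for oligodendrocytes, −2.13 for their precursors, −0.15 for endothelial cells, −1.68 for fibroblasts, −0.54 for voltage-gated potassium channels, −1.43 for metabotropic glutamate receptors, −0.96 for monoamine and peptide receptors, −0.76 for the perineuronal net, −0.17 for adhesion and −0.69 for pumps. Leaving out single libraries gave 1.59 to 1.88 for PV genes, −2.51 to −2.06 for erythrocytes, 0.84 to 1.33 for transcription factors, −0.40 to −0.12 for voltage-gated potassium channels, −0.99 to −0.65 for monoamine and peptide receptors and −0.70 to −0.36 for pumps. Pumps were at −0.70 without TRAP 11.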

Other observations

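A pair of gene groups was added after their members had been seen among the largest changes, so their counts are descriptions. Of 44 tested genes of striated muscle, 16 were higher and 11 lower in TRAP, with a median log2 fold change of 0.00. The share higher was somewhat above the 27.4% of all genes, and the share lower was near their 27.6%. The members named below therefore describe single genes and not a shift of the group. Beside Tcap, Cav3, Mustn1 and Tpm2, the myosin light chain gene Myl1 (3.86), the membrane anchor Ank1 (3.29), the myosin-binding protein Mybpc1 (3.19), the oxygen-binding Mb (2.99) and the calcium buffer Casq2 (2.22) were higher. The cardiac myosins Myh6 and Myh7 and the troponins Tnni1 (−2.23) and Tnnt2 (−2.20) were lower, as was Casq1 (−1.79, at 1.01 CPM in input). The troponins Tnni3 (1.99) and Tnnt3 (1.78) were higher, but at only 1.10 and 0.277 CPM in TRAP. Tnni3 overlaps Dnaaf3 on the same strand. Ttn, Ckm, Actn2 and Ryr1 did not pass the test.

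Of 49 tested genes of motile cilia, 25 were higher (51.0%) and 6 lower (12.2%), against 27.4% and 27.6% of all genes (median 0.71). Sntn, which encodes a protein of the ciliary tip, had a log2 fold change of 3.09, and Dynlrb2, a dynein light chain, 2.93. The regulator Rfx3 was lower (−1.79). The summed level was 663, 460, 305 and 368 CPM in TRAP 1, 6, 9 and 11, against 224 to 279 CPM in input and 359 to 757 CPM in TRAP of defeated mice. TRAP 1 was highest of the 4 and all 4 lay above input. The part of ependymal cells in these values was not tested.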
